A study of Mus musculus with 22 samples.

Results

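The genes described here are the amino acid transporter families Slc1a, Slc3a, Slc6a, Slc7a, Slc36a, Slc38a and Slc43a. They were taken by symbol from the RefSeq annotation of the mouse assembly GRCm38, which is mm10, and came to 63 of 21631 protein-coding genes on the autosomes and X. The Slc6a family had 21 members, Slc7a 15, Slc38a 11, Slc1a 7, Slc36a 4, Slc43a 3 and Slc3a 2. Slc7a6os, a separate gene named after Slc7a6, was not counted. A transporter gene was counted as near a peak when the peak centre lay within 5000 bp of either gene end or inside the gene.

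Binding sites came from chromatin immunoprecipitation and sequencing (ChIP-seq) in mpkCCD cells of clone 11, a mouse cortical collecting duct line, so all groups stand for 1 clone. The groups were CREB1 after dDAVP, CREB1 after vehicle, C/EBP beta after dDAVP and C/EBP beta after vehicle, with 4, 4, 2 and 2 immunoprecipitated samples. All cells had been held in medium without serum or hormones and were then given 0.1 nM dDAVP, a vasopressin analog selective for the V2 receptor, or vehicle for 30 min. The data are 1 deposited peak list per group, with 406, 785, 2401 and 209 peaks in the order of the groups above, so no value has a replicate error and no treatment difference could be tested. Read depth is unknown, gene expression was not measured, and a gene without a listed peak is not shown to be free of the factor.

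These carriers set what amino acids a cell can take up or exchange. Slc3a proteins are heavy chains that bring Slc7a light chains to the plasma membrane, and Slc38a and Slc1a carriers couple uptake of neutral or acidic amino acids to ions. In many mammalian cells a shortage of amino acids raises ATF4, a basic leucine zipper factor that can pair with C/EBP beta on composite C/EBP-ATF elements, and several carriers, such as Slc7a11, Slc3a2 and Slc7a5, are known targets of that response. CREB1, which protein kinase A phosphorylates when vasopressin raises cAMP, binds the cAMP response element (CRE).

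Among the 66 member promoters listed by RefSeq for 45 of the 63 genes, 3 were overlapped by a peak. They are shown because they let the peak be set against the letters under it. Each runs from 250 bases before to 50 after the transcription start of the assembly GRCm38.p6, 5′ to 3′ on the gene's strand. In Slc7a11 and Slc1a4, which lay under C/EBP beta peaks, capitals mark matches on either strand to TGATGNAA, the core of a composite C/EBP-ATF or amino acid response element, or to the looser C/EBP pattern TTNCNNAA. In Slc38a6, which lay under CREB1 peaks, they mark the full CRE, TGACGTCA, and its core TGACG, on either strand, and the full CRE itself holds a TGACG on each strand.
Slc7a11 promoter, chr3:50443564-50443863, minus strand: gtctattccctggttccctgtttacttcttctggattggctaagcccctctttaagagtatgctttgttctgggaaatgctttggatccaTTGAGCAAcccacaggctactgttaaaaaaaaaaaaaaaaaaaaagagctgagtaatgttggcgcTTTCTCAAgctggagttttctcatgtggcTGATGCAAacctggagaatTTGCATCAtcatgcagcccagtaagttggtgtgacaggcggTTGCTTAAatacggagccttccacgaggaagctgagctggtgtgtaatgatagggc
Slc1a4 promoter, chr11:20332664-20332963, minus strand: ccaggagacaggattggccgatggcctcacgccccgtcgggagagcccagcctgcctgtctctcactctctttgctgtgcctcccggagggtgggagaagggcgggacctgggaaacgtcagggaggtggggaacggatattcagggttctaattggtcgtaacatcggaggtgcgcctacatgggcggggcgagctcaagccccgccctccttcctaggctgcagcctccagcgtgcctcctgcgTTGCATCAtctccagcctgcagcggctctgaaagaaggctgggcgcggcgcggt
Slc38a6 promoter, chr12:73286598-73286897, plus strand: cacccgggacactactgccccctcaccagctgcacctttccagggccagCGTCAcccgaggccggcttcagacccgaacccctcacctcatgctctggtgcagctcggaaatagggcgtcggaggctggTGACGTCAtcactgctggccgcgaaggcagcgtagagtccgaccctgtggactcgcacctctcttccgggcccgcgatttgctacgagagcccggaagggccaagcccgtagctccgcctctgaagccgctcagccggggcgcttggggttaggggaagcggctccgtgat

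After dDAVP, 8 of the 63 transporter genes were near a C/EBP beta peak, which is 12.7% of them against 7.83% of all protein-coding genes (percent of 21631). They were Slc3a2, Slc7a5, Slc7a11, Slc7a15, Slc7a1, Slc43a2, Slc1a4 and Slc38a7, with 9 peaks in all. After vehicle, 1 of 63 was near a C/EBP beta peak, Slc38a7, or 1.59% against 0.781% of all genes. CREB1 peaks were near 1 of 63 in each treatment, Slc38a6 both times, or 1.59% against 2.72% of all genes after dDAVP and 5.17% after vehicle. No transporter gene was near peaks of both factors. Of all genes 0.846% were, so a count of 0 among 63 genes carries little information.

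The C/EBP beta share after dDAVP rested on sites within genes. The centres of all 9 peaks lay inside their genes, and when only the 5000 bp around gene ends counted, 2 of 63 transporters (3.17%) had a peak, Slc1a4 and Slc38a7, against 5.01% of all genes. The other 3 lists stayed at 1 of 63 by that count, against 2.67% and 5.05% of all genes for CREB1 after dDAVP and vehicle and 0.513% for C/EBP beta after vehicle. Transporter genes had a median length of 34.0 kb, against 17.3 kb for all protein-coding genes, and the 1693 genes near a C/EBP beta peak after dDAVP had a median of 37.7 kb. A longer gene has more room for a peak, and the part of length in the share was not tested. Counted from the transcription starts listed by RefSeq, a measure added after the data were seen, 3 of 45 members with a listed start had a C/EBP beta peak centre within 1000 bp after dDAVP (6.67%, against 2.52% of 17274 genes). These were Slc1a4, Slc7a11 and Slc3a2, and Slc38a7 lay just beyond that distance.

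**Figure D1:**
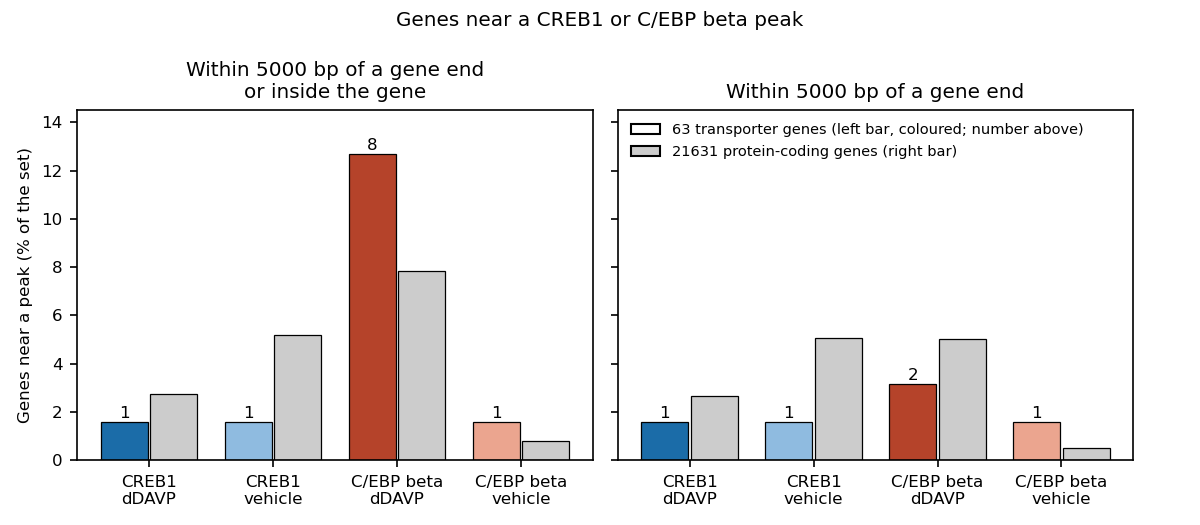
Share of genes near a peak, in percent of each set, for the 63 transporter genes (coloured bars, with the number of genes above) and for all 21631 protein-coding genes (grey bars), in each of the 4 peak lists. Counting gene bodies (left panel) puts the C/EBP beta share of transporters after dDAVP above that of all genes, at 12.7% against 7.83%, and counting gene ends alone (right panel) puts it below, at 3.17% against 5.01%.

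The heavy and light chains of the heteromeric transporters made up 4 of the 8. Slc3a2 encodes the heavy chain 4F2hc (CD98), the partner of several light chains. Its dDAVP list peak, on chromosome 19 from 8712895 to 8713115, was 221 bp wide with a deposited score of 159, above 38.8% of the 2401 scores in that list. The score is the authors' own value per peak, with no stated scale, and serves here only to rank peaks within a list. The peak centre lay 6123 bp from the nearer gene end and 892 bp downstream of the RefSeq start, inside the gene. No C/EBP beta peak after vehicle lay nearer to Slc3a2 than 2861215 bp. The CREB1 site nearest to Slc3a2, which overlapped Wdr74, was 12438 bp away after dDAVP and 12440 bp away after vehicle.

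Slc7a5 encodes LAT1, the exchanger for large neutral amino acids that pairs with 4F2hc. Its C/EBP beta peak after dDAVP spanned chromosome 8 from 121898440 to 121898768 and had the highest score of the 9 transporter peaks, 734, rank 232 of 2401. The centre lay inside the gene, 9082 bp from its nearer end, and RefSeq exons were not used, so exon and intron were not told apart. After vehicle no peak was listed there, but a peak with a score of 131 lay 29996 bp outside the gene, from 121851014 to 121851287. Slc7a5 was thus called after dDAVP and not after vehicle. The farther site was listed in both treatments, since all 209 vehicle peaks overlapped a dDAVP peak. Its nearest gene was Gm42048, 7248 bp away.

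Slc7a11 encodes xCT, the light chain that exchanges glutamate for cystine and so feeds glutathione synthesis. Its C/EBP beta peak after dDAVP, on chromosome 3 from 50443603 to 50443841, lay wholly on the promoter printed above, with the centre 109 bp upstream of the start. The deposited score of 70 was low, above 4.91% of the list. The gene model of RefSeq runs on to 50499087, so that by gene ends alone the same centre was 55365 bp away. The promoter held TGATGCAA with its first base at -66 and TTGCATCA at -47, counted from the start as +1, which are matches to TGATGNAA in opposite directions. Their middles were 47 and 66 bp from the peak centre. It also held 3 matches to TTNCNNAA, at -160, -95 and -6, and all 5 matches were inside the peak. The nearest vehicle peak of C/EBP beta was 859134 bp from the gene.

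Slc7a15, a further Slc7a gene, had a pair of C/EBP beta peaks after dDAVP on chromosome 12. The first, from 8572699 to 8573066, scored 350 and the second, from 8573330 to 8573555, scored 146. Both were well inside the gene, 26184 bp and 25624 bp from its nearer end. Other light chain genes had no peak under the rule, including Slc7a6 (y+LAT2), Slc7a7 (y+LAT1), Slc7a8 (LAT2) and Slc7a9, and nor did Slc3a1, the heavy chain rBAT of renal cystine uptake. In all, 3 of 10 light chain genes and 1 of 2 heavy chain genes had a C/EBP beta peak after dDAVP, and none of the 12 had one after vehicle or a CREB1 peak in either treatment. Over all genes these shares were 7.83% and 0.781% for C/EBP beta and 2.72% and 5.17% for CREB1 after dDAVP and vehicle, so that counts of 0 among 12 genes carry little information.

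Slc7a1 encodes CAT1, a carrier of arginine and lysine that needs no heavy chain. It was 1 of 5 cationic carriers with a C/EBP beta peak after dDAVP (20.0%, against 7.83% of all genes). The peak spanned chromosome 5 from 148373122 to 148373370. The score of 49, rank 2376 of 2401, was the lowest of the transporter peaks, and the centre lay 19569 bp downstream of the nearer listed start. Slc43a2 encodes LAT4, a facilitative carrier of neutral amino acids, and was 1 of 3 Slc43a genes with such a peak (33.3%, against 7.83%). It spanned chromosome 11 from 75571279 to 75571590 with a score of 435, inside the gene and 6141 bp from its nearer end. Slc43a1 (LAT3) and Slc43a3 had none, and the nearest centre was 143300 bp from Slc43a1. With sets of 5 and 3 genes, these shares carry little information.

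Slc1a4 encodes ASCT1, an exchanger of alanine, serine and cysteine. After dDAVP its C/EBP beta peak, on chromosome 11 from 20332532 to 20332886, was centred 4 bp downstream of the start, closer than any other transporter peak of this factor, and scored 484, above 82.5% of the list. The promoter above held a single match to TGATGNAA, read as TTGCATCA on the printed strand with its first base at -4, so that it ran across the start. Its middle was 4 bp from the peak centre. No match to TTNCNNAA was found in those letters. The nearest C/EBP beta peak after vehicle was 8067100 bp from Slc1a4. The other Slc1a genes, 6 of 7, had no peak of either factor, among them Slc1a5, the glutamine carrier ASCT2, whose nearest C/EBP beta peak after dDAVP was 8106005 bp away. Over all genes, 7.83% and 0.781% were near a C/EBP beta peak after dDAVP and vehicle. For CREB1 these shares were 2.72% and 5.17%, so counts among 7 genes carry little information.

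Slc38a7 encodes SNAT7, a glutamine carrier of lysosomes, and was the single transporter gene with a C/EBP beta peak in both lists. After dDAVP the peak spanned chromosome 8 from 95852280 to 95852680, 401 bp, and scored 548, above 85.2% of its list. After vehicle it spanned 95852351 to 95852576, 226 bp, and scored 119, above 38.8% of its list. The vehicle peak thus lay within the dDAVP peak. Whether scores compare between lists is unknown. The centres were 1011 bp downstream of the RefSeq start after dDAVP and 1028 bp after vehicle. Slc7a5, whose dDAVP peak scored higher at 734 but was narrower at 329 bp, had no listed vehicle peak under the rule. All 209 vehicle peaks of C/EBP beta overlapped a dDAVP peak, and 9.98% of the 1693 genes near a dDAVP peak were also near a vehicle peak, against 1 of 8 among the transporters.

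**Figure D2:**
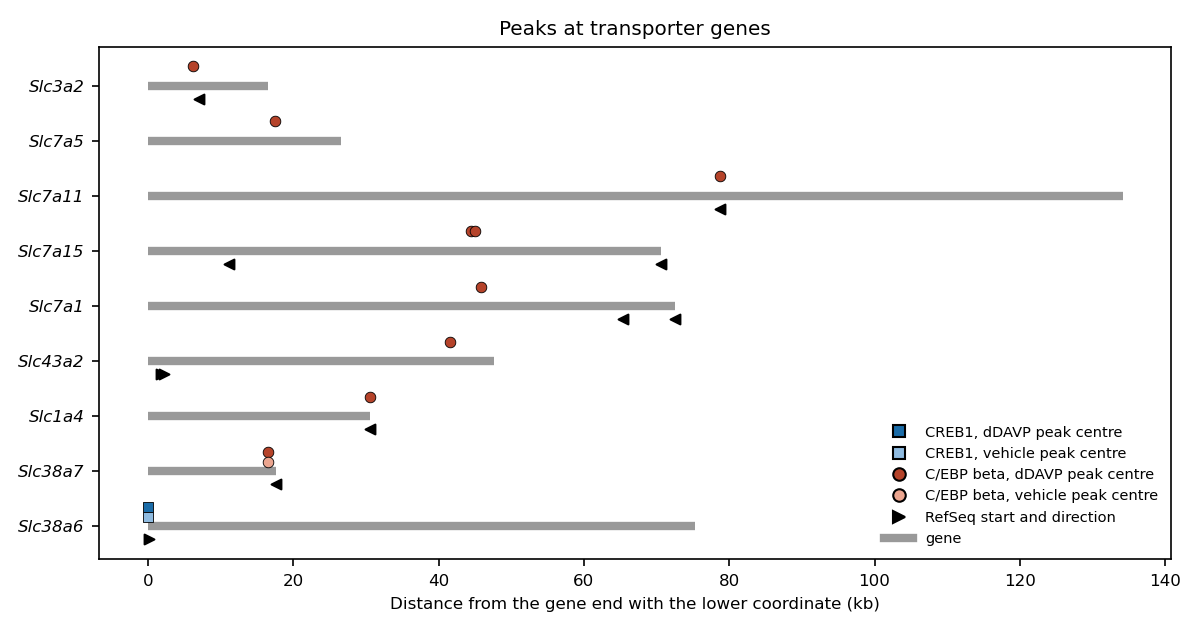
The 9 transporter genes near a peak, each drawn as a grey bar from its end with the lower coordinate (x axis, distance in kb), with C/EBP beta peak centres as circles, CREB1 peak centres as squares and RefSeq starts as arrowheads that point in the direction of transcription; no start was listed for Slc7a5. Peaks sit on or beside a start in Slc7a11, Slc1a4 and Slc38a6, within about 1 kb downstream of one in Slc3a2 and Slc38a7, and away from any listed start in Slc7a15, Slc7a1 and Slc43a2, with the Slc43a2 peak 6141 bp from the far end of its gene and the Slc7a5 peak 9082 bp from an end.

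CREB1 was listed at Slc38a6, a member of the family of sodium-coupled neutral amino acid carriers, in both treatments. The dDAVP peak, on chromosome 12 from 73286599 to 73286863, was 265 bp wide, and the vehicle peak, from 73286529 to 73286912, was 384 bp wide and held all of it. The CREB1 lists carry no score. By width these peaks exceeded 59.9% of the dDAVP list and 84.2% of the vehicle list. The centres lay 117 bp upstream of the Slc38a6 start after dDAVP and 128 bp upstream after vehicle. The middle of the full CRE in the promoter above, whose first base is at -121, was 0 bp from the dDAVP centre and 11 bp from the vehicle centre. The same peaks also counted for Trmt5, a tRNA methyltransferase gene, so the site cannot be given to one of the pair.

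Full CREs were more frequent in promoters under CREB1 peaks than in promoters as a whole, though most promoters under these peaks had none. Among the 66 transporter promoters, 1 held TGACGTCA, that of Slc38a6 (1.52%, against 2.26% of 21045 protein-coding gene promoters). Promoters overlapped by a CREB1 peak held it in 27.6% of 402 after dDAVP and in 23.5% of 779 after vehicle. The core TGACG was in 25.8% of transporter promoters and 23.8% of all. Under CREB1 peaks it was in 90.0% of promoters after dDAVP and 85.5% after vehicle. TGATGNAA was found in 5 of the 66 transporter promoters (7.58%, against 3.45% of all): those of Slc7a11 and Slc1a4, 2 alternative promoters of Slc7a7 and that of Slc6a21. The windows of these 2 Slc7a7 promoters overlap, so a match could be counted in both. TGATGNAA was in 8.11% of the 296 promoters under a C/EBP beta peak after dDAVP and in 12.8% of the 39 under one after vehicle. TTNCNNAA was in 36.4% of transporter promoters and 37.4% of all, against 61.5% of those under a C/EBP beta peak after dDAVP. The C/EBP palindrome TTGCGCAA was in 0 of the 66 and in 0.223% of all promoters. A match says only that the letters are present in the window of 300 bases.

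The 9 C/EBP beta peaks at transporters after dDAVP were neither among the best-scoring peaks of the list nor all among its weak ones. Their scores ran from 49 to 734 with a median of 350, against 30 to 3880 with a median of 197 over all 2401 peaks, and 5 of 9 were above that median. Their widths ran from 221 to 401 bp with a median of 312 bp, against 266 bp. With the dDAVP list reduced to its upper 50% of scores, 5 of 63 transporters kept a peak (7.94%, against 4.19% of all genes), and the peaks of Slc3a2, Slc7a11 and Slc7a1 were lost. Reduced to its best 209 peaks, as many as the vehicle list holds, it had 0 of 63, against 0.874% of all genes.

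**Figure D3:**
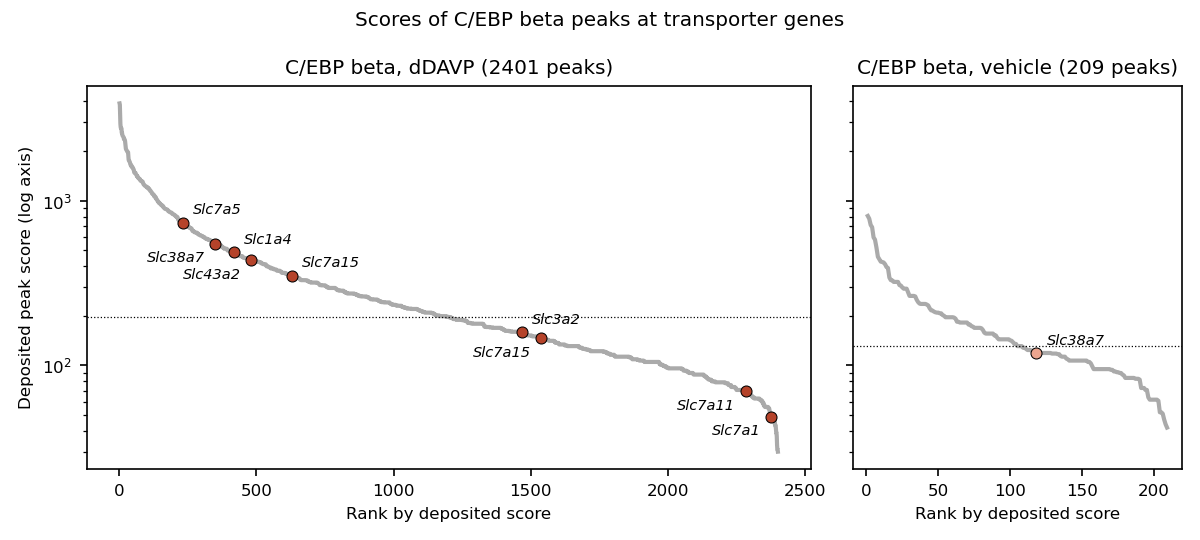
Deposited scores of C/EBP beta peaks (log axis) by rank within the dDAVP list and the vehicle list, with peaks at transporter genes as labelled points and the median of each list as a dotted line. After dDAVP, Slc7a5, Slc38a7, Slc1a4, Slc43a2 and 1 peak of Slc7a15 are above the median of 197; after vehicle the Slc38a7 peak, at 119, is below the median of 131.

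Farther sites had a transporter as their nearest protein-coding gene. After dDAVP there were 6 such C/EBP beta peaks at 3 genes, Slc38a6, Slc38a2 and Slc1a4, among 771 peaks (32.1% of the list) more than 5000 bp from any gene. After vehicle there were 2, at Slc38a6 and Slc38a2, among 65, and the CREB1 lists had none. The share of all genes that were nearest to such a peak was not counted, so these counts cannot be set against other genes. On chromosome 12 a C/EBP beta peak from 73445542 to 73446017 scored 2740 after dDAVP, rank 6 of 2401, and the same site scored 328 after vehicle, rank 18 of 209. Slc38a6 was the nearest protein-coding gene, 83781 bp away, and a further dDAVP peak with a score of 425 lay 85581 bp from it. On chromosome 15 the site from 96802350 to 96802835 scored 2039 after dDAVP, rank 25, and 212 after vehicle, rank 47. Its nearest protein-coding gene was Slc38a2, which encodes SNAT2, a carrier known to be induced by amino acid shortage, at 102864 bp. A dDAVP peak with a score of 420 lay 71311 bp from Slc38a2. The remaining dDAVP peaks were weaker, with a score of 69 at 28695 bp from Slc38a6 and a score of 251 at 103528 bp from Slc1a4. The sites listed in both treatments outranked every C/EBP beta peak counted for a transporter, and which gene, if any, they act on was not measured.

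The members just outside the distance rule were also set out. For C/EBP beta after dDAVP these were Slc7a7 at 14332 bp (peak inside Mmp14), Slc38a5 at 18613 bp and Slc3a1 at 26290 bp. The Slc38a5 site was 362 bp from Ftsj1 and the Slc3a1 site 27 bp from Prepl. No member lay between 5000 and 14332 bp. For CREB1 they were Slc3a2 at 12438 bp after dDAVP and 12440 bp after vehicle, and Slc6a3, a dopamine carrier, at 25260 bp and 25264 bp. The Slc6a3 site was 70 bp from Clptm1l after dDAVP and 66 bp after vehicle. Slc38a7 and Slc7a4 followed within 50000 bp in both CREB1 lists, next to Cnot1 and Smpd4. Over all members with a peak on their chromosome, the median distance from gene to nearest peak centre was 971.0 kb for CREB1 after dDAVP (59 genes) and 464 kb after vehicle. It was 143 kb for C/EBP beta after dDAVP (63 genes) and 2860 kb after vehicle. The same medians over all genes were 1590 kb, 725 kb, 272 kb and 4170 kb.

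**Figure D4:**
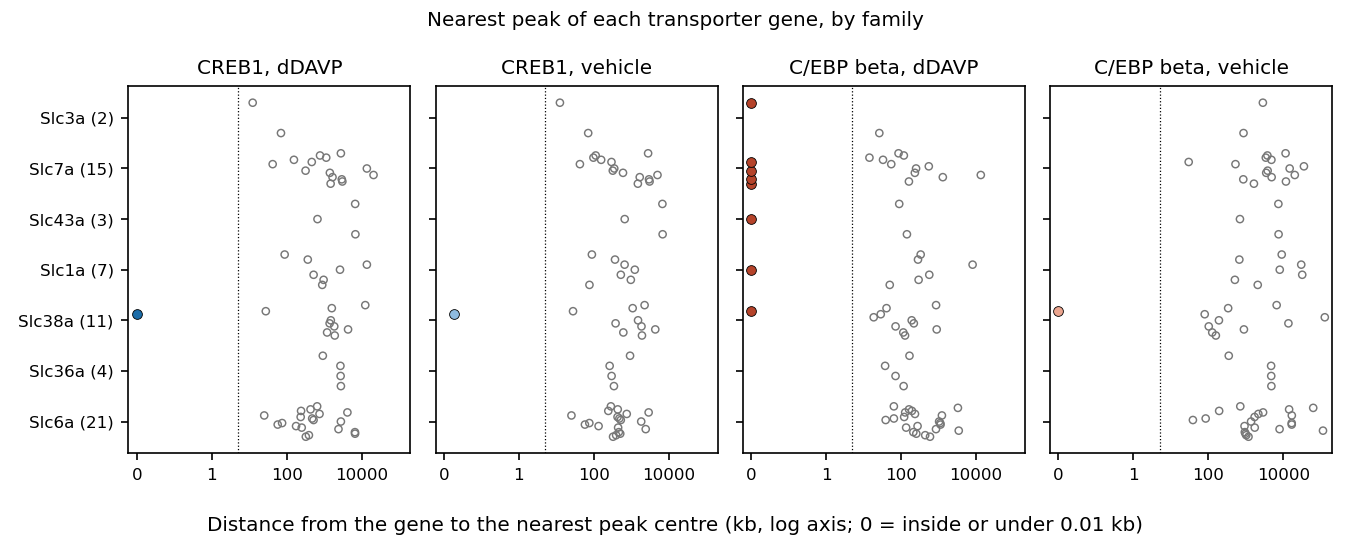
Distance from each of the 63 transporter genes to the nearest peak centre (kb, log axis, with 0 for centres inside the gene or under 0.01 kb away), by family with its number of genes, in the 4 lists; filled points are genes near a peak under the rule and the dotted line marks 5 kb. Filled points appear in the Slc3a, Slc7a, Slc43a, Slc1a and Slc38a families and in neither Slc36a nor Slc6a. The CREB1 panels lack the 4 genes on X, where those lists had no peak.

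The Slc6a family, which carries neurotransmitters, osmolytes, creatine and neutral amino acids, had 0 of 21 genes near a peak in each of the 4 lists, and the Slc36a proton-coupled carriers had 0 of 4. Against 7.83% and 0.781% of all genes for C/EBP beta and 2.72% and 5.17% for CREB1 after dDAVP and vehicle, families of this size could show no peak without standing apart from other genes. Among them were Slc6a9 (the glycine carrier GlyT1), Slc6a6 (the taurine carrier) and Slc6a12 (the betaine carrier of the hypertonic renal medulla). The nearest C/EBP beta peak after dDAVP was 64216 bp from Slc6a9 and 194891 bp from Slc6a6. That site, close to Xpc, was listed in both treatments with scores of 1361 after dDAVP and 182 after vehicle. Slc6a20a, a proline carrier, was 38834 bp from a site close to Lztfl1 with scores of 1349 after dDAVP and 107 after vehicle. In the Slc36a family the nearest peak, 37529 bp from Slc36a3, was in the dDAVP list of C/EBP beta.

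Genes that work alongside these carriers were counted by the same rule. Of 21 amino acid and peptide carriers of other families, 3 were near a C/EBP beta peak after dDAVP (14.3%, against 7.83% of all genes): Slc32a1, the vesicular GABA and glycine carrier, 660 bp from a gene end, Slc15a3, a peptide carrier of lysosomes, at 2207 bp, and Slc17a5, the lysosomal sialic acid carrier, at 3005 bp. The Slc17a5 site at 3005 bp scored 2348 after dDAVP and 278 after vehicle. A further dDAVP peak inside Slc17a5, 16612 bp from its nearer end, scored 114 and had no listed vehicle peak. Slc17a5 was the single one of the 21 near a C/EBP beta peak after vehicle (4.76%, against 0.781% of all genes). No CREB1 peak was near any of the 21, against 2.72% of all genes after dDAVP and 5.17% after vehicle. Of 29 genes of amino acid sensing by the kinase complex mTORC1, 3 were near a C/EBP beta peak after dDAVP (10.3%, near the 7.83% of all genes), Wdr24, Sesn2 and Fnip2, and 0 after vehicle, against 0.781% of all genes. CREB1 peaks were near 0 of the 29 after dDAVP, against 2.72% of all genes, and near 3 after vehicle, Wdr59, Rheb and Fnip1 (10.3%, against 5.17% of all genes). With so few genes no difference between the treatments can be read from these counts.

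Among the 63 transporters 1 gene, Slc1a4, had a C/EBP beta peak within 1000 bp of a gene end after dDAVP (1.59%, against 2.51% of all genes). This measure misses peaks at starts that lie inside a gene model, as at Slc7a11 and Slc3a2. From listed starts, 3 of 45 transporters had such a peak within 1000 bp (6.67%, against 2.52% of 17274 genes). Within 1000 bp of a gene end, 10 of 24 genes of the amino acid response had a peak, and they were not counted from starts. That list was chosen with earlier results of these data known, so its shares are not independent of them. By the full rule 12 of these 24 were near a C/EBP beta peak after dDAVP (50.0%, against 7.83% of all genes) and 2 after vehicle, Chac1 and Ddit3 (8.33%, against 0.781%). The closest after dDAVP were at Aldh18a1, Trib3, Atf3, Pycr1, Psat1 and Chac1, 1 to 194 bp from a gene end. CREB1 peaks were near 1 of the 24 in each treatment, Ppp1r15a after dDAVP and Atf4 after vehicle. That is 4.17%, against 2.72% of all genes after dDAVP and 5.17% after vehicle. With 1 gene per list, no difference between the treatments can be read.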

How the data were processed

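Per the submitters' processing notes, which give neither role nor version, the tools were BWA, SAMtools, MACS2 and bedtools and the build was mm10. No source used here tells how replicates were combined. The deposited CREB1 lists hold positions alone. The deposited C/EBP beta lists add a score per peak, without a stated scale, under names of replicate 1 that give MACS2 settings (bandwidth 300, duplicates 1, q 0.01). The 10 inputs (22 samples in all) had no file of their own here. By their titles, 2 of these inputs are named for both antibodies, so the CREB1 and C/EBP beta groups share them.

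Peaks were joined to RefSeq genes of GRCm38.p6 in Python 3.11.15 with pandas 2.3.3, in code tested on simulated data, and positions count from 1. Starts, strands and sequences came from RefSeq promoters of the same build, which covered 45 of 63 members. Members and lists were chosen with earlier results of these data known. The text names every member with a peak, 10 fixed members (among them Slc7a5, Slc38a2 and Slc6a9), members just outside the rule, and up to 6 genes with the closest peaks per other list; a few others were chosen after their values were seen. Castor1, Lamtor1, Mtor and further mTORC1 genes made a list of 30, of which 29 were found. Peaks overlapping by 1 bp were shared. No test was run, since each group has 1 list. Alternatives changed the distance, the counting of gene bodies, the peak position, and the part of each list used.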

Additional observations from a re-analysis of the deposited data

How the results depend on the processing

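Of 29 alternatives for the transporter counts, 19 stayed within 1.5 times the reported count. At 50000 bp, 17 of 63 transporters were near a C/EBP beta peak after dDAVP (27.0%, against 19.6% of all genes) and 3 after vehicle (4.76%, against 2.04%), and 5 were near a CREB1 peak in each treatment (7.94%, against 6.97% of all genes after dDAVP and 12.5% after vehicle). For C/EBP beta after dDAVP, the count of 8 became 2 with gene bodies left out (3.17%, against 5.01% of all genes). It was 5 in the upper 50% of scores (7.94%, against 4.19%) and 0 in the best 209 peaks (against 0.874%). Within 1000 bp of a listed transcription start, a setting added after seeing the data, it was 3. Only 45 members have such a start (6.67%, against 2.52% of 17274 genes), and Slc7a5 has none. For C/EBP beta after vehicle, the count of 1 became 0 in the upper 50% of scores (against 0.347% of all genes) and 0 at listed starts (against 0.249%). A distance of 1000 bp, any base of the peak in place of its centre, and reciprocal overlap of 50% moved none of the transporter counts, and the wider peaks alone kept Slc38a6 in both CREB1 lists. Read depth is unknown, so the lists' lengths limit every count. No paired analysis was possible because each group has 1 list and no replicate has a file of its own. Leaving out replicates could not be done for the same reason.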
